A study of Homo sapiens with 25 samples.

Results

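Energy metabolism microRNAs (miRNAs) are described here in small RNA libraries of A2780 cells: miR-103, miR-107, miR-378, miR-210, miR-33a and miR-33b. They were chosen by name, as the unstarred rows of these miRNAs in the table of mature sequences (6 of 1410 rows, 1033 of them human) and as the 7 precursor rows hsa-mir-103-1, hsa-mir-103-2, hsa-mir-107, hsa-mir-378, hsa-mir-210, hsa-mir-33a and hsa-mir-33b (of 934 rows, 557 of them human). A star marks the lesser arm of a hairpin as the deposited tables name it, and the starred arms of the same hairpins are given beside the members.

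A miRNA guides an Argonaute protein to messenger RNAs that pair with its seed, the bases near its 5′ end, and lowers their translation and stability. Most of these miRNAs are made from introns of metabolic genes: the PANK genes encode pantothenate kinases, which start the synthesis of coenzyme A, PPARGC1B encodes a coactivator of mitochondrial genes, and SREBF1 and SREBF2 encode the transcription factors that switch on the synthesis of fatty acids and of cholesterol. In mouse liver and fat miR-103 and miR-107 lower insulin sensitivity. In human cells miR-33a and miR-33b repress the cholesterol exporter ABCA1, and miR-210 is induced by hypoxia-inducible factor and represses the iron-sulfur cluster scaffold ISCU, a protein that mitochondrial respiration needs.

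The mature sequences show which members a read or a target can tell apart. They are the RefSeq sequences of GRCh38.p14, written 5′ to 3′ with the seed (bases 2 to 8) in capitals.
miR-103: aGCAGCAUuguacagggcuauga
miR-107: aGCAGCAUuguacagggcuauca
miR-378: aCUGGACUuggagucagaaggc
miR-210: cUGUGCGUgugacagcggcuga
miR-33a: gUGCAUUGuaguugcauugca
miR-33b: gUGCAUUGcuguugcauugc
miR-33a*: cAAUGUUUccacagugcaucac
miR-33b*: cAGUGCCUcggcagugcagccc

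The 6 members carry 4 seeds. miR-103 and miR-107 share a seed and differ by a single base, G22C (miR-103 first, counted from the 5′ end), so a read that ends before base 22 cannot be assigned to either. The sources used here do not give how such reads were assigned. The unstarred arms of miR-33a and miR-33b share a seed and differ at U9C and A10U, and miR-33b is shorter by its last base. The starred arms of these hairpins differ at 7 positions, among them A3G, U6C and U7C within the seed, so they have different seeds. Of 2370 human mature names in the RefSeq table, the miR-103 seed is held by 2, the miR-33a seed by 2, the miR-210 seed by 1 and the miR-378 seed by 7. The other 6 names with the miR-378 seed were not analysed here.

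In GRCh38.p14, miR-103 is made from 2 genes with an identical mature sequence, MIR103A1 (mature bases chr5:168560904-168560926, minus strand, inside PANK3) and MIR103A2 (chr20:3917541-3917563, plus strand, inside PANK2). MIR107 lies inside PANK1 (chr10:89592756-89592778, minus strand). MIR378A lies inside PPARGC1B (chr5:149732867-149732888, plus strand), and MIR210 inside the noncoding gene MIR210HG (chr11:568112-568133, minus strand). MIR33A lies inside SREBF2 (chr22:41900949-41900969, plus strand) and MIR33B inside SREBF1 (chr17:17813897-17813916, minus strand).

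A2780 is an established human ovarian carcinoma line. All 3 groups carried a lentiviral vector: one for miR-450a (450a-vector libraries), one for miR-450b (450b-vector libraries) or an empty one (empty-vector libraries), with 3 libraries each. Differences are given as the group named first minus the group named second. The libraries of a group are described as biological replicates of a line, with no statement of separate transductions, and p-values then cover only the spread between them, which may be technical. Values are the deposited share of a miRNA in all miRNA reads of a library, given as reads per 1000000 miRNA reads (RPM), and without read totals the depth behind a share is unknown and has no counting interval.

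The libraries differed in more than the vector. miR-450a reached 8967 to 20745 RPM in 450a-vector libraries, against 317 to 446 RPM in empty-vector libraries, and miR-450b reached 547 to 1544 RPM in 450b-vector libraries, against 71.6 to 131 RPM in empty-vector libraries. The 8 rows of mesenchymal marker miRNAs (both arms of miR-214, miR-199a and miR-199b, with miR-145 and miR-143) together held 0.0417% to 0.0572% of reads in 450a-vector libraries, 20.6% to 25.1% in 450b-vector libraries and 18.0% to 25.8% in empty-vector libraries. None of these rows was at 0. Of the 8 rows 2 were lower in 450b-vector than in empty-vector libraries, where 10.1% of all rows were lower. These were miR-143 (log2 -2.18, limma adjusted p = 0.00026) and miR-145 (-3.09, limma adjusted p = 0.00014). The epithelial markers (6 rows, among them miR-200c and miR-141) held 0.0276% to 0.0370% of reads in 450a-vector libraries, 0.00879% to 0.0152% in 450b-vector libraries and 0.00690% to 0.00974% in empty-vector libraries. Most of this was miR-200c, with group means of 286, 122 and 62.0 RPM in that order. Every other row of the list had a lower mean in 450b-vector than in empty-vector libraries, as miR-141 did (5.02 against 11.2 RPM). In 450a-vector libraries miR-205 was lower than in empty-vector libraries (0.795 against 5.34 RPM) and the rest were higher. The blood cell markers (5 rows, among them miR-142) held 0.0103% to 0.0280% in 450a-vector libraries, 0.0120% to 0.0303% in 450b-vector libraries and 0.0121% to 0.0305% in empty-vector libraries. A simian virus 40 miRNA stood at 47.8 to 73.4 RPM in 450a-vector libraries and at 0.501 RPM or less in the other 6 libraries. Every value for 450a-vector or 450b-vector libraries below is therefore a difference between libraries. For neither vector can an effect be told apart from a difference in the cells, nor fewer cells of a type from less of a miRNA per cell. Within the groups, empty-vector replicate 1 and 450a-vector replicate 2 had the lowest mean correlation across miRNAs with the other libraries of their group (0.962 and 0.966), and results that rest on them are given with and without them.

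The members differed widely in level, counted per read. Ranked by mean over the 9 libraries, miR-103 was the 6th most abundant of the 1410 rows at 30962 RPM, miR-378 the 19th at 16108 RPM and miR-107 the 43rd at 5321 RPM, and miR-210 averaged 1032 RPM. miR-33a was the 201st at 170 RPM and miR-33b the 270th at 63.9 RPM. This order held within each of the 9 libraries. Across libraries the ranges of miR-103 (18773 to 39816 RPM) and miR-378 (7400 to 25204 RPM) overlapped, as did those of miR-33a and miR-33b, whereas miR-378, miR-107, miR-210 and miR-33a did not overlap. Together the 6 members made up 6.57% ± 0.466 of miRNA reads in 450a-vector libraries, 5.02% ± 0.546 in 450b-vector libraries and 4.51% ± 1.14 in empty-vector libraries (SD, n = 3 each).

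**Figure D1:**
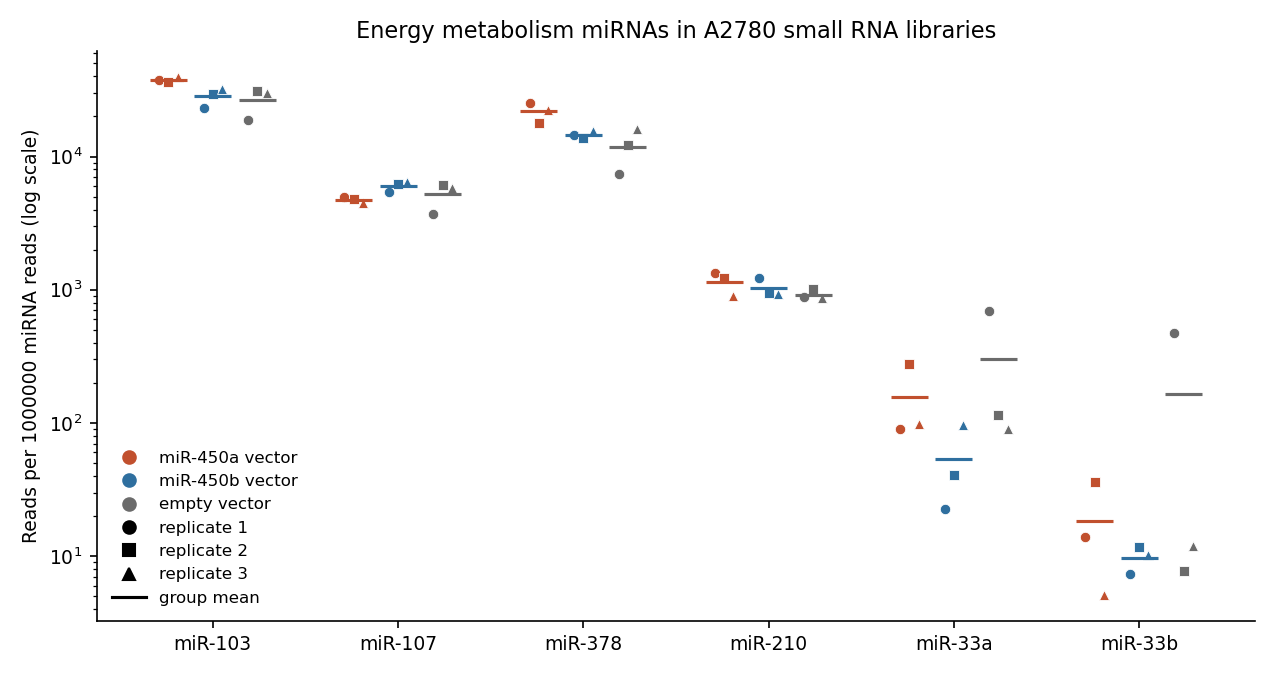
Level of each of the 6 members (reads per 1000000 miRNA reads, log axis) in each library; color gives the vector, symbols the replicate and bars the group mean. miR-33a and miR-33b are far above their group in empty-vector replicate 1 (696 and 471 RPM), and for miR-103 and miR-378 the 3 450a-vector libraries lie above all others.

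All 6 members passed the filter of a mean of at least 10 RPM. miR-33b, at 5.12 to 35.9 RPM in 8 libraries and 471 RPM in empty-vector replicate 1, had the lowest mean of them. Against empty-vector libraries, 1 of 6 members passed the threshold in 450a-vector libraries, miR-378, which was higher. Over all 406 mature rows tested, 55.4% passed in that comparison (36.9% higher and 18.5% lower, 150 and 75 rows, which were 102 and 104 rows with median-of-ratios scaling), and no member was lower. The groups did not overlap for 2 of 6 members, miR-103 and miR-378, against 57.9% of all rows. In 450b-vector libraries 0 of 6 members passed in limma, against 14.5% of all rows. Of all rows 4.43% were higher and 10.1% lower (18 and 41 rows, or 26 and 34 when so scaled). None of the 6 had groups that did not overlap, against 31.8%. At an unadjusted p under 0.05 there was 1 member, miR-33a, which was lower, against 31 higher and 79 lower of the 406 rows. Between the vectors, 0 of 6 passed in limma, against 60.3% of all rows. There 41.9% of all rows were higher and 18.5% lower (170 and 75 rows, or 90 and 106 when so scaled). None of the 6 had an unadjusted p under 0.05, against 187 higher and 85 lower of the 406 rows. The groups did not overlap for 3 of 6 (miR-103, miR-107 and miR-378), against 69% of all rows.

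The size of the members' differences was set beside that of the whole table. The median absolute log2 difference of the 6 members was 0.52 between 450a-vector and empty-vector libraries, 0.30 between 450b-vector and empty-vector libraries and 0.40 between 450a-vector and 450b-vector libraries. Over all 406 rows the same medians were 0.91, 0.45 and 1.01. With median-of-ratios scaling the members' medians were 0.52, 0.52 and 0.44, against 0.86, 0.46 and 0.82 over all rows, so between 450b-vector and empty-vector libraries the members' median was below that of the table in one scaling and above it in the other. The signed median of all rows was itself 0.44, -0.16 and 0.62 in these comparisons, and median-of-ratios scaling moved it to between -0.016 and 0.014. Differences of the members are therefore also given relative to it. Both vectors were set against the same 3 empty-vector libraries, so their values are given side by side only.

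**Figure D2:**
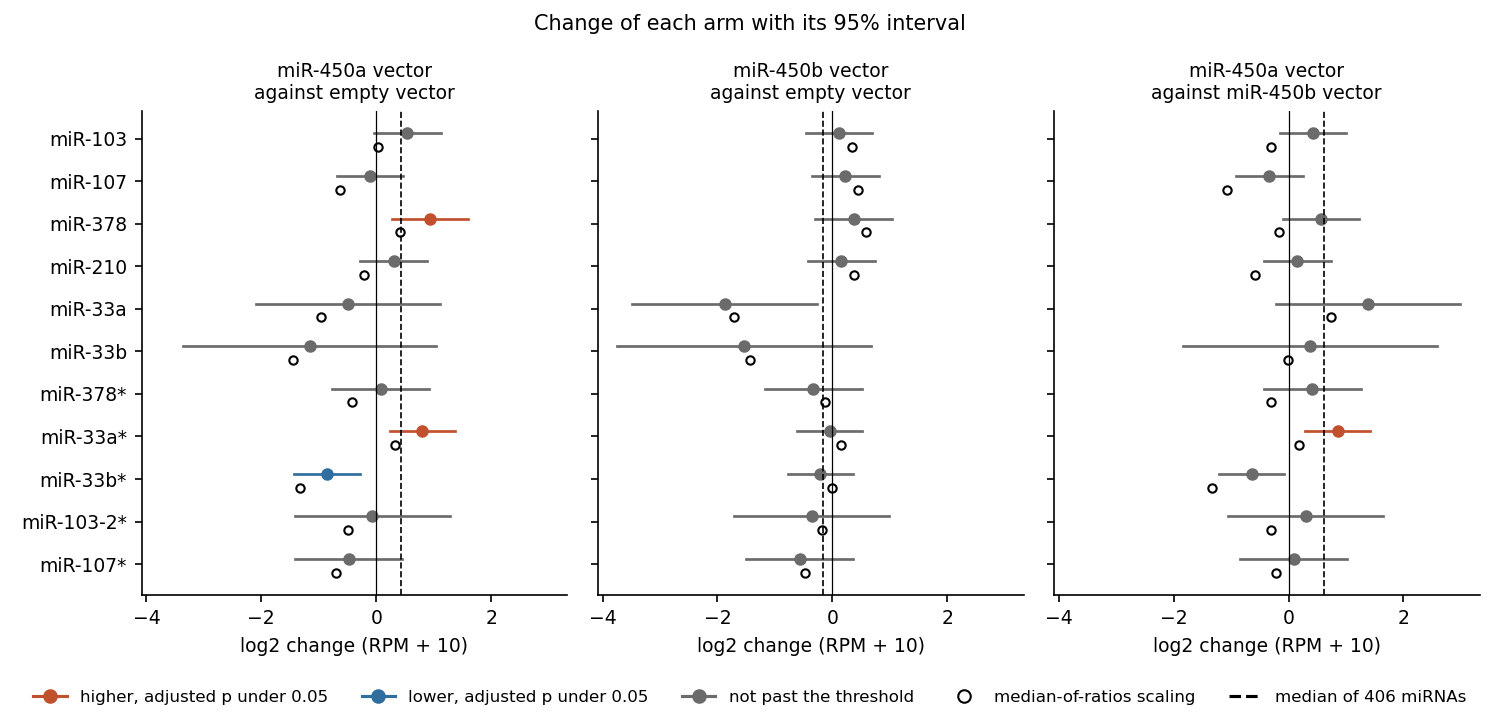
Log2 difference in RPM + 10 of each member and starred arm in the 3 comparisons, with 95% intervals (filled points), the value under median-of-ratios scaling (open points) and the median of all 406 rows (dashed line). miR-378, miR-33a* and miR-33b* pass the threshold between 450a-vector and empty-vector libraries, and the intervals of miR-33a and miR-33b are the widest.

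miR-103 and miR-107, the miRNAs of the pantothenate kinase genes, had different patterns over the groups. miR-103 stood at 37517, 36200 and 39816 RPM in 450a-vector libraries, at 23308, 29614 and 32439 RPM in 450b-vector libraries and at 18773, 30822 and 30173 RPM in empty-vector libraries. All 3 450a-vector libraries were above all others. The log2 difference was 0.54 (SE 0.26, 95% interval -0.033 to 1.12, limma adjusted p = 0.0996) between 450a-vector and empty-vector libraries, 0.31 without empty-vector replicate 1 (adjusted p = 0.258), and 0.42 (SE 0.26, adjusted p = 0.178) against 450b-vector libraries, and neither passed. Relative to the median of all rows these values were 0.11 and -0.19, so miR-103 lay near the middle of the table. The 450b-vector and empty-vector libraries overlapped, with a log2 difference of 0.12 (95% interval -0.46 to 0.70, adjusted p = 0.786) that was -0.11 without empty-vector replicate 1.

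miR-107 stood at 4930, 4782 and 4514 RPM in 450a-vector libraries, at 5395, 6198 and 6388 RPM in 450b-vector libraries and at 3735, 6167 and 5780 RPM in empty-vector libraries. The 450a-vector libraries lay below all 450b-vector libraries and inside the range of empty-vector libraries, where replicate 1 was the lowest of the 9 libraries. No comparison passed: the log2 differences were -0.11 (95% interval -0.69 to 0.47, adjusted p = 0.749) between 450a-vector and empty-vector libraries, 0.23 (-0.35 to 0.81, adjusted p = 0.596) between 450b-vector and empty-vector libraries and -0.33 (-0.91 to 0.24, adjusted p = 0.279) between 450a-vector and 450b-vector libraries. Without empty-vector replicate 1 the first of these was -0.33 and the second 0.0018. The difference between the vectors was -0.95 relative to the median of all rows, and with median-of-ratios scaling it was -1.07 and passed (adjusted p = 0.00570).

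At these levels the ratio of the pair depends little on how a library is scaled. With 10 RPM added to each, the ratio of miR-103 to miR-107 was 7.60, 7.56 and 8.80 in 450a-vector libraries. It was 4.31, 4.77 and 5.07 in 450b-vector libraries and 5.02, 4.99 and 5.21 in empty-vector libraries. The 3 450a-vector libraries were above the 6 others, while the 450b-vector and empty-vector libraries overlapped. In log2 the ratio was higher by 0.65 in 450a-vector than in empty-vector libraries and by 0.76 than in 450b-vector libraries, each with a two-sided exact permutation p of 0.1, the smallest that 3 against 3 libraries allow. Adjusted over the 30 tests of ratios and shares both p-values were 0.667. Between 450b-vector and empty-vector libraries the difference was -0.11 (exact p = 0.3). Summed, the pair held 4.26% ± 0.168 of reads in 450a-vector libraries, 3.44% ± 0.520 in 450b-vector libraries and 3.18% ± 0.808 in empty-vector libraries (SD, n = 3 each), again without overlap between 450a-vector libraries and either other group (exact p = 0.1 each). As reads that end before base 22 carry no mark of either miRNA, the part of read length and read assignment in this ratio was not tested.

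The other miRNAs with a closely related 5′ end were a list of 7: miR-15a, miR-15b, miR-16, miR-195, miR-424, miR-497 and miR-503. They hold the bases AGCAGC of the miR-103 seed region shifted by a base, as in the sequences of the most abundant of them and of both that are made beside miR-450a on the X chromosome.
miR-16: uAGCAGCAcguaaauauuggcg
miR-424: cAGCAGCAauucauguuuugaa
miR-503: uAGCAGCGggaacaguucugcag
AGCAGC was found within bases 1 to 8 of 13 of the 2370 mature names (0.549%), miR-103, miR-107 and these 7 included. In 450a-vector libraries 3 of the 7 were higher than in empty-vector libraries and none was lower, where 36.9% of all rows were higher and 18.5% lower: miR-503 (log2 2.14), miR-497 (1.14) and miR-424 (1.02). miR-16 (log2 -0.31, adjusted p = 0.475), miR-15b (-0.30), miR-15a (-0.30) and miR-195 (0.44) did not pass. In 450b-vector libraries 0 of the 7 passed in limma, against 14.5% of all rows. At an unadjusted p under 0.05 there were 0 of the 7, against 31 higher and 79 lower of 406 rows. The median log2 was -0.47, against -0.16 over all rows. Between the vectors 4 of 7 were higher in 450a-vector libraries, against 41.9% of all rows, miR-195 being the fourth (log2 1.01). With median-of-ratios scaling 1 of the 7, miR-503, passed against empty-vector libraries, where 102 of 406 rows were higher and 104 lower. Between the vectors 2 of the 7 passed so scaled, miR-503 and miR-497, where 90 rows were higher and 106 lower.

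miR-378, made from PPARGC1B, was the member that passed against empty-vector libraries. It stood at 25204, 17890 and 22365 RPM in 450a-vector libraries, at 14544, 13848 and 15519 RPM in 450b-vector libraries and at 7400, 12234 and 15970 RPM in empty-vector libraries. All 450a-vector libraries lay above all others, and the spread was widest in empty-vector libraries, whose replicate 1 had less than either of the other two libraries. The ratio of means was 1.84 and the log2 difference 0.93 (SE 0.30, 95% interval 0.27 to 1.60, limma adjusted p = 0.0221). Relative to the median of all rows it was 0.50. The call was lost, with the direction kept, without empty-vector replicate 1 (log2 0.63, adjusted p = 0.0578), without 450a-vector replicate 1 (0.82, adjusted p = 0.0852) and without its replicate 3 (0.91, adjusted p = 0.0628). It was also lost with median-of-ratios scaling (0.42, adjusted p = 0.295).

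Against 450b-vector libraries, miR-378 was higher by a log2 of 0.56 in 450a-vector libraries and did not pass (95% interval -0.10 to 1.23, adjusted p = 0.124), although the groups did not overlap. It passed without empty-vector replicate 1 in the shared estimate of the spread (0.56, adjusted p = 0.0477). The direction turned with median-of-ratios scaling (-0.17). The difference of 450b-vector from empty-vector libraries was 0.37 (95% interval -0.30 to 1.04, adjusted p = 0.441), and 0.065 without empty-vector replicate 1. The starred arm, miR-378*, which in breast cancer cells targets genes of the oxidative programme, stood at 533, 1008 and 498 RPM in 450a-vector libraries, at 459, 717 and 338 RPM in 450b-vector libraries and at 645, 782 and 447 RPM in empty-vector libraries. These groups overlapped in each comparison, with log2 differences of 0.081, -0.33 and 0.41, none of which passed. The unstarred arm was 97.9%, 94.7% and 97.8% of both arms in 450a-vector libraries, 96.9%, 95.1% and 97.9% in 450b-vector libraries and 92.0%, 94.0% and 97.3% in empty-vector libraries.

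miR-210, the hypoxia-induced member, had the narrowest range of the 6 in proportion to its level. It stood at 1326, 1226 and 897 RPM in 450a-vector libraries, at 1218, 938 and 933 RPM in 450b-vector libraries and at 885, 1006 and 862 RPM in empty-vector libraries. The groups overlapped in all 3 comparisons. The log2 difference was 0.31 (95% interval -0.28 to 0.89, adjusted p = 0.347) for 450a-vector libraries and 0.16 (-0.43 to 0.74, adjusted p = 0.715) for 450b-vector libraries, each against empty-vector libraries, and 0.15 (-0.43 to 0.73, adjusted p = 0.654) between the vectors. With median-of-ratios scaling the first and last of these were -0.21 and -0.58, so no direction can be given. Its starred arm was at 1.78 RPM or less in every library and below the filter. With 10 RPM added to each, the ratio of miR-378 to miR-210 within a library was 18.9, 14.5 and 24.7 in 450a-vector libraries. It was 11.8, 14.6 and 16.5 in 450b-vector libraries and 8.28, 12.1 and 18.3 in empty-vector libraries. These groups overlapped (exact p = 0.2 between 450a-vector and empty-vector libraries).

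Other miRNAs reported as hypoxia-responsive were a list of 11, all tested. In 450a-vector libraries 4 of the 11 were higher and 5 lower than in empty-vector libraries, where 36.9% of all rows were higher and 18.5% lower, with a median log2 of 0.49 against 0.44 over all rows. miR-26a was lower (log2 -0.78, adjusted p = 0.0166) and so was miR-26b (-1.39). The 4 that were higher were the miR-181 members, miR-181a (3.35), miR-181b (3.05), miR-181c (1.72) and miR-181d (1.76), and the other 3 that were lower were miR-23a (-2.22), miR-24 (-2.13) and miR-27a (-2.81). miR-210 lay between these, without a call. In 450b-vector libraries 0 of the 11 passed in limma, against 14.5% of all rows. At an unadjusted p under 0.05 there were 0 of the 11, against 31 higher and 79 lower of 406 rows. Between the vectors 4 of the 11 were higher and 5 lower in 450a-vector libraries (41.9% and 18.5% of all rows).

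miR-33a and miR-33b, the miRNAs of the SREBF genes, varied widely between libraries of the same group. miR-33a stood at 89.9, 279 and 98.9 RPM in 450a-vector libraries, at 22.5, 40.9 and 97.1 RPM in 450b-vector libraries and at 696, 114 and 89.5 RPM in empty-vector libraries. Empty-vector replicate 1 was the highest of the 9 and 450a-vector replicate 2 the next. The log2 difference was -0.49 (SE 0.73, 95% interval -2.10 to 1.12, adjusted p = 0.590) between 450a-vector and empty-vector libraries, and 0.40 without empty-vector replicate 1. Between 450b-vector and empty-vector libraries it was -1.87 (SE 0.73, 95% interval -3.48 to -0.27, adjusted p = 0.130), and -0.99 without that library. Between the vectors it was 1.38 (SE 0.73, adjusted p = 0.118), 0.89 without 450a-vector replicate 2, and past the threshold when empty-vector replicate 1 was left out of the shared estimate of the spread (1.38, adjusted p = 0.0330).

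miR-33b stood at 14.0, 35.9 and 5.12 RPM in 450a-vector libraries, at 7.38, 11.6 and 10.1 RPM in 450b-vector libraries and at 471, 7.66 and 11.9 RPM in empty-vector libraries. Apart from empty-vector replicate 1 the 3 groups lay in the same range. On the log2 scale that library was 4.61 above the mean of the other 2 of its group, the largest such excess of all 406 rows, and miR-33a was 2.67 above, the 8th largest. In the same library miR-103-2* was 2.24 above and miR-107* 1.51 above, while miR-378 was 0.92 below, miR-103 0.70 below and miR-107 0.68 below. The log2 differences of miR-33b were -1.16 (SE 1.00, adjusted p = 0.347) for 450a-vector libraries and -1.54 (SE 1.00, adjusted p = 0.350) for 450b-vector libraries, each against empty-vector libraries, and without that library 0.38 and -0.0016. Between the vectors the difference was 0.38 (SE 1.00, adjusted p = 0.759). With 10 RPM added to each, the ratio of miR-33a to miR-33b ranged from 4.17 to 7.20 in 450a-vector libraries. It ranged from 1.87 to 5.33 in 450b-vector libraries and from 1.47 to 7.04 in empty-vector libraries, and the groups overlapped. As miR-33b was low in most libraries, the addition makes these ratios smaller than those of the RPM values.

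The starred arms of these hairpins varied less within groups than the unstarred ones and differed in opposite directions between 450a-vector and empty-vector libraries. miR-33a* stood at 171, 165 and 135 RPM in 450a-vector libraries, at 77.8, 78.5 and 90.8 RPM in 450b-vector libraries and at 82.2, 66.1 and 113 RPM in empty-vector libraries. All 450a-vector libraries were above all others. The log2 difference was 0.81 (SE 0.26, 95% interval 0.24 to 1.37, adjusted p = 0.0204) against empty-vector libraries and 0.85 (SE 0.26, 95% interval 0.29 to 1.42, adjusted p = 0.0148) against 450b-vector libraries, and both passed. With median-of-ratios scaling neither did (0.33, adjusted p = 0.321, and 0.18, adjusted p = 0.616). The first call was also lost without 450a-vector replicate 1 or 2 or empty-vector replicate 2 (log2 0.64 to 0.99 over the libraries left out, adjusted p 0.00870 to 0.0753). The second was lost without 450a-vector replicate 1 (0.79, adjusted p = 0.0543) or 450b-vector replicate 2 (0.82, adjusted p = 0.0515).

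miR-33b* stood at 125, 165 and 138 RPM in 450a-vector libraries, at 268, 240 and 183 RPM in 450b-vector libraries and at 306, 244 and 248 RPM in empty-vector libraries. All 450a-vector libraries were below all others. It was lower in 450a-vector than in empty-vector libraries, with a log2 difference of -0.85 (SE 0.26, 95% interval -1.42 to -0.28, adjusted p = 0.0162), a call lost without 450a-vector replicate 1 (-0.77, adjusted p = 0.0664) and kept in 18 of 19 alternatives. Against 450b-vector libraries the difference was -0.64 (95% interval -1.21 to -0.072, adjusted p = 0.0505), just short of the threshold, which it passed in 8 of 19 alternatives. With median-of-ratios scaling both were -1.33 and passed (adjusted p = 0.00144 and 0.00134). Between 450b-vector and empty-vector libraries, miR-33a* (log2 -0.048) and miR-33b* (-0.21) did not pass.

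The ratio of miR-33a* to miR-33b*, looked at after these values were seen and so given without a test, was 1.36, 1.00 and 0.978 in 450a-vector libraries, 0.291, 0.327 and 0.497 in 450b-vector libraries and 0.268, 0.271 and 0.458 in empty-vector libraries. The arm called lesser in the tables was the more abundant one for miR-33b in 8 of 9 libraries and for miR-33a in 5 of 9. The unstarred arm of miR-33b was 10.0%, 17.9% and 3.57% of both arms in 450a-vector libraries, 2.68%, 4.62% and 5.25% in 450b-vector libraries and 60.6%, 3.05% and 4.57% in empty-vector libraries. For miR-33a it ranged from 34.4% to 62.8% in 450a-vector libraries, from 22.4% to 51.7% in 450b-vector libraries and from 44.1% to 89.4% in empty-vector libraries. For miR-103, miR-107 and miR-210 the unstarred arm was 98.8% to 99.97% in every library. No difference in these shares between groups had an exact permutation p below 0.2, where 0.1 is the smallest possible.

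**Figure D3:**
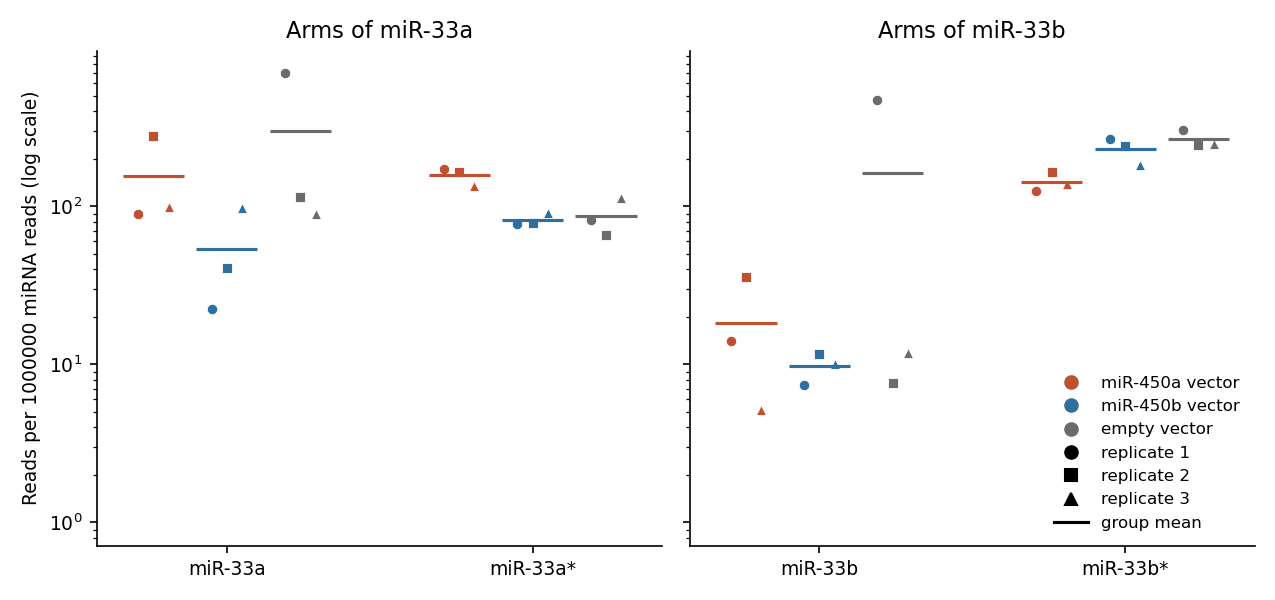
Level of both arms of miR-33a (left) and miR-33b (right) in each library (reads per 1000000 miRNA reads, log axis); color gives the vector, symbols the replicate and bars the group mean. The starred arms form tight groups, with miR-33a* higher and miR-33b* lower in 450a-vector libraries, whereas the unstarred arms spread widely, empty-vector replicate 1 being highest.

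Of the 7 starred arms 5 passed the filter, and beside the 3 above these were miR-103-2* and miR-107*. miR-107* averaged 13.1 RPM and passed the filter only through empty-vector replicate 1 (43.6 RPM). miR-103-2* stood at 31.8, 127 and 53.2 RPM in 450a-vector libraries, at 32.3, 75.2 and 44.2 RPM in 450b-vector libraries and at 200.4, 32.2 and 36.8 RPM in empty-vector libraries. miR-107* stood at 5.13, 21.8 and 4.66 RPM in 450a-vector libraries, at 4.07, 9.47 and 11.3 RPM in 450b-vector libraries and at 43.6, 7.21 and 10.5 RPM in empty-vector libraries. As for miR-33a and miR-33b, empty-vector replicate 1 was the highest library of both and 450a-vector replicate 2 the next. No comparison of either passed.

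The precursor rows carried no separate measurement: each equalled the unstarred arm, divided over its gene copies, plus the starred arm, exactly for hsa-mir-107, hsa-mir-378, hsa-mir-210, hsa-mir-33a and hsa-mir-33b and within 0.413% for hsa-mir-103-1 and hsa-mir-103-2. Their calls followed from those arms. Against empty-vector libraries, hsa-mir-378 was higher in 450a-vector libraries (log2 0.90, SE 0.28, adjusted p = 0.0159). In hsa-mir-33b the starred arm outweighs the other in 8 of 9 libraries, empty-vector replicate 1 being the exception (306 against 471 RPM). hsa-mir-33b stood at 139, 201 and 144 RPM in 450a-vector libraries and at 275, 252 and 193 RPM in 450b-vector libraries. In empty-vector libraries it stood at 777, 251 and 259 RPM. It was lower in 450a-vector than in empty-vector libraries (-1.17, SE 0.40, adjusted p = 0.0236), and without empty-vector replicate 1 the difference was -0.65 and did not pass (adjusted p = 0.0621). The call was also lost without 450a-vector replicate 1 (-1.08, adjusted p = 0.0764) or replicate 3 (-1.10, adjusted p = 0.0713). Over all 284 precursor rows 62.7% passed in this comparison (43.3% higher and 19.4% lower, 123 and 55 rows, which were 83 and 77 with median-of-ratios scaling), and the groups did not overlap for 4 of 7 members, against 64.1% of rows. hsa-mir-33a stood at 261, 444 and 234 RPM in 450a-vector libraries, at 100.3, 119 and 188 RPM in 450b-vector libraries and at 778, 180 and 203 RPM in empty-vector libraries, and did not pass in any comparison. Without empty-vector replicate 1 in the shared estimate of the spread it was higher in 450a-vector than in 450b-vector libraries (log2 1.14, adjusted p = 0.00832), and it also passed there without 450b-vector replicate 3 (1.38, adjusted p = 0.0449). In limma 0 of the 7 passed between 450b-vector and empty-vector libraries, against 17.3% of rows (5.63% higher and 11.6% lower), and the groups did not overlap for 0 of 7, against 31%. Between 450a-vector and 450b-vector libraries 0 of the 7 passed, against 66.9% of rows (49.3% higher and 17.6% lower, 140 and 50 rows, or 75 and 75 with median-of-ratios scaling), and the groups did not overlap for 5 of 7, against 73.9%. In each of these 2 comparisons 1 member, hsa-mir-33a, had an unadjusted p under 0.05. Of all 284 rows 20 higher and 60 lower had one between 450b-vector and empty-vector libraries, and 148 and 54 between the vectors.

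Other miRNAs with reported roles in lipid and glucose metabolism were a list of 26 rows, 21 of them tested. In 450a-vector libraries 4 of the 21 were higher and 10 lower than in empty-vector libraries, where 36.9% of all rows were higher and 18.5% lower. With median-of-ratios scaling 2 of the 21 were higher and 10 lower, where 102 of 406 rows were higher and 104 lower. Without that scaling the median log2 was -0.12, against 0.44 over all rows. miR-29a, the second most abundant of the list, was lower (log2 -3.11), and miR-19b, the most abundant, did not pass (0.011). In 450b-vector libraries 0 of the 21 were higher in limma and 5 were lower (median -0.54), where 4.43% of all rows were higher and 10.1% lower. At an unadjusted p under 0.05 also 0 of the 21 were higher, against 31 of 406 rows. Between the vectors 6 were higher and 8 lower in 450a-vector libraries, where 41.9% of all rows were higher and 18.5% lower. With median-of-ratios scaling 4 were higher and 8 lower, where 90 of 406 rows were higher and 106 lower. Of the 26 rows of the list, 6 (both miR-23, miR-26 and miR-27 pairs) are also in the hypoxia list. miR-143, lower in 450a-vector than in empty-vector libraries (-6.27), is also a mesenchymal marker. The list held 8.88% to 12.5% of reads in 450a-vector libraries, 10.2% to 12.8% in 450b-vector libraries and 13.6% to 17.1% in empty-vector libraries.

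The rows whose log2 RPM + 10 pattern over the 9 libraries was most like a member's differed between members. For miR-378 they were miR-1304-3p (Pearson r = 0.96), miR-3158 (0.96) and miR-146b (0.94). For miR-103 they were miR-532-5p (0.92), miR-378 (0.88) and miR-769 (0.88), so both abundant members had similar patterns. miR-107, in spite of its near identity to miR-103, was most like miR-301a* (0.79), miR-365-1* (0.78) and miR-92b* (0.74), and miR-210 most like miR-628 (0.81), miR-2277* (0.81) and miR-320-RNASEN (0.75). miR-33a was most like miR-19a* (0.98), miR-362-3p (0.96) and miR-188 (0.95), and miR-33b most like miR-193a-3p (0.98), miR-570-3p (0.94) and miR-107* (0.92). These values describe 9 libraries in 3 groups, share each library's scaling, and for miR-33a and miR-33b are led by empty-vector replicate 1.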

How the data were processed

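Small RNA was sequenced from 9 A2780 libraries as 50-cycle single reads, per the labels' protocols. The authors deposited fractions: per the file headers, a row holds the relative frequency of a mature miRNA or a precursor among the miRNA reads of each library, and a library sums to 1. An aligner for these reads is not given in the sources used here. TopHat and Cuffdiff appear in the submitters' processing notes without a role. Shares were multiplied by 1000000 (RPM) and analysed as log2(RPM + 10), which understates differences of low miRNAs. Rows averaging 10 RPM or more over all libraries were tested, 406 mature and 284 precursor ones.

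A limma fit with an intensity trend over all 9 libraries (limma 3.58.1, R 4.3.3) gave log2 differences, standard errors, 95% intervals and Benjamini-Hochberg p-values adjusted over all rows tested, with a threshold of 0.05. Ratios between members were taken after adding 10 RPM to each, and shares and the ratio of starred arms without an addition. Ratios between members and shares within a library were compared with two-sided exact permutation tests, adjusted over 30 tests (Python 3.11.15, scipy 1.17.1, figures with matplotlib 3.10.9). Sequences and gene positions were read from RefSeq tables of GRCh38.p14, where miR-107* had no entry. The code was tested on simulated data. The labels state no pairing of replicate numbers, and none was assumed. Deviations of same-numbered libraries correlated from -0.507 to 0.641.

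The members, and the lists of other miRNAs, were chosen with earlier results of these data known. Named beside the members were their starred arms, the 3 rows most like each member by Pearson r, the relatives of miR-103 by 5′ end, and the 2 most abundant miRNAs of each other list. The other hypoxia list members, miR-143 and the difference of miR-145 were named after their values were seen. The alternatives tried were a pseudocount of 1 or 100 RPM, an average of 100 RPM or more and no filter at all, median-of-ratios scaling, removal of the miR-450, miR-199 and miR-214 rows, no trend, the compared groups only, the replicate block, each library left out, and, chosen after seeing the data, both least typical libraries left out. Samples of mRNA and of PAR-CLIP were not used here.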

Additional observations from a re-analysis of the deposited data

How the results depend on the processing

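The depth behind the shares is unknown, so it sets a limit that cannot be stated, and it bears most on miR-33b and the starred arms. miR-378 kept its direction in all 19 alternatives and its call in 13 of them (log2 0.42 to 1.18, adjusted p 0.00870 to 0.295), miR-33a* its call in 12 of 19 (0.33 to 0.99) and miR-33b* in 18 of 19 (-1.33 to -0.59), all between 450a-vector and empty-vector libraries. Members called higher there numbered 0 without a filter on low values (miR-378 adjusted p = 0.0610), 0 with median-of-ratios scaling and 0 with the miR-450, miR-199 and miR-214 rows removed, and 0 to 1 when a library was left out. Over all mature rows 102 of 406 were higher there with median-of-ratios scaling, and 123 to 152 when a library was left out. Precursors called higher were 0, 0 and 0 under the same 3 settings and 0 to 1 without a library, and precursors called lower 0 without a filter, 2 with median-of-ratios scaling and 0 to 1 without a library. With median-of-ratios scaling 83 of all 284 precursor rows were higher there and 77 lower. Between 450a-vector and 450b-vector libraries, members called higher were 1 in a fit of the compared groups only (miR-33a), 1 with both least typical libraries left out (miR-378) and 0 to 2 without a library. Over all mature rows 136 to 183 were higher there when a library was left out. Members called lower there were 1 of 6 with median-of-ratios scaling (miR-107), where 106 of 406 rows were lower. Precursors called higher there were 2 in the fit of the compared groups, 2 with both libraries left out and 0 to 2 without a library, and those called lower 2 with median-of-ratios scaling and 1 with both libraries left out. With median-of-ratios scaling 75 of all 284 precursor rows were lower there. For precursors without a library, and for the other settings named so far, the share of all rows is not given here. Those counts are therefore not read as results about the members. Over all rows, 81 were higher with a mean of at least 100 RPM against 150 in the comparison of 450a-vector with empty-vector libraries, and 87 (that filter, which tests fewer rows) or 90 (median-of-ratios scaling) against 170 in that of 450a-vector with 450b-vector libraries. Between 450b-vector and empty-vector libraries 27 were lower with a pseudocount of 100 RPM and 25 with a mean of at least 100 RPM, against 41.

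Directions that turned belonged to values that had not passed, and where no construction is named the cause was not tested. With median-of-ratios scaling these were, between 450a-vector and empty-vector libraries, miR-210 (-0.21), miR-378* (-0.43), mir-103-1 (-0.095), mir-103-2 (-0.097) and mir-210 (-0.32). Between 450b-vector and empty-vector libraries they were miR-33a* (0.15) and miR-33b* (0.00036). Between 450a-vector and 450b-vector libraries they were miR-103 (-0.31), miR-378 (-0.17), miR-210 (-0.58), miR-33b (-0.0074), miR-378* (-0.31), miR-103-2* (-0.31), miR-107* (-0.22), mir-103-1 (-0.42), mir-103-2 (-0.42), mir-378 (-0.29) and mir-210 (-0.69). With the named rows removed they were miR-210 (-0.0062), miR-378* (-0.23) and mir-210 (-0.0063) between 450a-vector and empty-vector libraries, and miR-210 (-0.19), miR-107* (-0.072) and mir-210 (-0.19) between 450a-vector and 450b-vector libraries. With both least typical libraries left out they were miR-378* (-0.20), miR-103-2* (0.21) and mir-33a (0.35) between 450a-vector and empty-vector libraries, miR-103 (-0.11), miR-103-2* (0.39), mir-103-1 (-0.11) and mir-103-2 (-0.11) between 450b-vector and empty-vector libraries, and miR-33b (-0.044), miR-103-2* (-0.18) and miR-107* (-0.27) between 450a-vector and 450b-vector libraries.

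Leaving out each library in turn, with a group of 2 assumed to vary like the others, the 450a-vector minus empty-vector differences ranged from -0.33 to 0.028 for miR-107, -0.33 to 0.022 for mir-107, -1.02 to 0.40 for miR-33a, -2.01 to 0.38 for miR-33b, -0.24 to 0.26 for miR-378*, -0.54 to 0.68 for miR-103-2*, -0.84 to 0.030 for miR-107* and -0.40 to 0.63 for mir-33a. The 450b-vector minus empty-vector differences ranged from -0.11 to 0.26 for miR-103, -0.11 to 0.25 for mir-103-1 and mir-103-2, -0.21 to 0.14 for miR-33a*, -0.77 to 0.39 for miR-103-2*, -0.98 to 0.15 for the log2 ratio of miR-33a to miR-33b, -0.067 to 0.51 for that of miR-378 to miR-210, and -0.202 to 0.550 percentage points for the summed share of miR-103 and miR-107. The 450a-vector minus 450b-vector differences ranged from -0.044 to 0.76 for miR-33b, -0.18 to 0.68 for miR-103-2* and -0.27 to 0.28 for miR-107*. Differences in the share of the unstarred arm, in percentage points, ranged as follows. For miR-103 they were -0.0878 to 0.454 (450a-vector minus empty-vector), -0.0663 to 0.475 (450b-vector minus empty-vector) and -0.0785 to 0.0674 (450a-vector minus 450b-vector). For miR-210 they were -0.0299 to 0.0382, -0.0404 to 0.0278 and -0.0182 to 0.0398 in these comparisons. For miR-107 they were -0.0711 to 0.448 (450a-vector minus empty-vector) and -0.144 to 0.0311 (450a-vector minus 450b-vector), and for miR-378 -0.599 to 1.25 (450a-vector minus 450b-vector). For miR-33b they were -22.1 to 6.69 (450a-vector minus empty-vector) and -28.4 to 0.375 (450b-vector minus empty-vector). The log2 ratio of miR-103 to miR-107 kept its direction in each of these.

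With the replicate number as a block, members called between 450a-vector and empty-vector libraries numbered 1 higher and 0 lower, and rows 153 higher and 77 lower, so the block changed no count of members. Deviations of same-numbered libraries correlated from -0.507 to 0.641 in 9 pairs and those of differently numbered ones from -0.554 to 0.645 in 18. Between 450a-vector and 450b-vector libraries same-numbered pairs were at 0.641, 0.481 and 0.0299, and differently numbered ones at -0.536 to 0.231. Same-numbered pairs that included an empty-vector library were at -0.507 to 0.423. No pairing was assumed, and a batch shared by number was not tested.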
